A study of Mus musculus with 9 samples.

Results

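Tumours grown from a mouse pancreatic cancer cell line without CD49b were compared with tumours grown from a line with CD49b, over all genes of the deposited count table. The comparison rests on 5 of the 9 libraries of the study, 3 from wild-type (WT) tumours and 2 from knockout (KO) tumours, and on 49671 genes. Genes were set in 3 classes by their level in the 4 libraries from the same lines in culture, where no host cell is present. The class called expressed holds 10434 genes with a mean of at least 5 counts scaled to library size (CPM) in a culture group, the class called silent holds 35132 genes under 0.5 CPM in every culture library, and 4105 genes lie between. RNA of a silent gene in a tumour can come from host cells or from cancer cells that switched the gene on in the animal, and these cannot be told apart. At the upper limit, 2810408A11Rik was the lowest expressed gene that was tested and Anpep the highest gene outside the class, with log2 fold changes in tumours of -0.81 and 0.07. At the lower limit, E330034L11Rik (0.493 CPM in its highest culture library) was the last silent gene and Gm10566 (0.507 CPM) the nearest gene outside, with log2 fold changes of -0.83 and 0.12.

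Both groups were syngeneic C57BL/6 mice with cells placed under the skin of the flank, and neither had a treatment beyond the implant. The WT group carried the line KPCWT (genotype WT) and the KO group the line KPC49bKO (genotype KPC49B knockout). Each genotype is a single line, so the effect of CD49b cannot be told apart from other differences between these lines. The flank is not the pancreas, the sources used here give no age or sex of the mice, and the tumours were dissociated with enzymes before RNA was extracted. The batch label equals the setting, in vivo or in vitro, so all 5 tumours share it. The labels call the tumours biological replicates without naming the animals, and p-values measure the spread between these samples only.

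CD49b is integrin alpha 2, encoded by Itga2, which pairs with the beta 1 chain to form a collagen receptor on epithelial cells and platelets. Pancreatic cancer cells of the mouse can take on programmes of the stomach and intestine, in which surface cells make mucins and trefoil peptides, absorptive cells carry a brush border, and crypt cells depend on Wnt signals relayed by beta-catenin. In a tumour these cells share the tissue with fibroblasts, vessels and immune cells, and activated T cells release interferon gamma, which induces chemokines, guanylate-binding proteins and antigen presentation in many cell types.

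Total counts ran from 16032912 to 19562695 in the tumours and from 17738774 to 21247023 in the cultures. WT tumours 1 and 2 were more alike than other pairs, with a chi-square per gene of 6.00 between them, against 29.75 to 39.16 in the other pairs of tumours within a group. Expressed genes took 96.5% to 97.9% of the counts of each tumour. Silent genes took 1.08%, 1.07% and 1.42% in WT tumours 1, 2 and 3 and 0.673% and 1.16% in KO tumours 1 and 3, so the groups overlapped. KO tumours carry the numbers 1 and 3 of the data columns. Of the epithelial markers, Krt19 and Cdh1 were abundant in all 5 tumours. Of the B cell marker Ms4a1 and the NK cell marker Ncr1 no tumour had more than 0.488 CPM.

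Of 16257 genes tested, 3206 passed an adjusted p of 0.05 in the quasi-likelihood test of edgeR, or 19.7%, with 1428 higher (8.78%) and 1778 lower (10.9%) in KO tumours. Counts of list members below are to be read beside these shares. Among expressed genes 1186 of 10426 rose (11.4%) and 1015 fell (9.74%), with a median log2 fold change of 0.06. Among silent genes 84 of 2518 rose (3.34%) and 317 fell (12.6%), with a median of -0.42. Among the genes between, 158 of 3313 rose (4.77%) and 446 fell (13.5%), with a median of -0.19. Of the genes called, 38 expressed genes were more than 8-fold higher and 92 more than 8-fold lower, and for silent genes the counts were 33 and 187. Of the silent genes that fell, 48 had no count in either KO tumour.

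**Figure D1:**
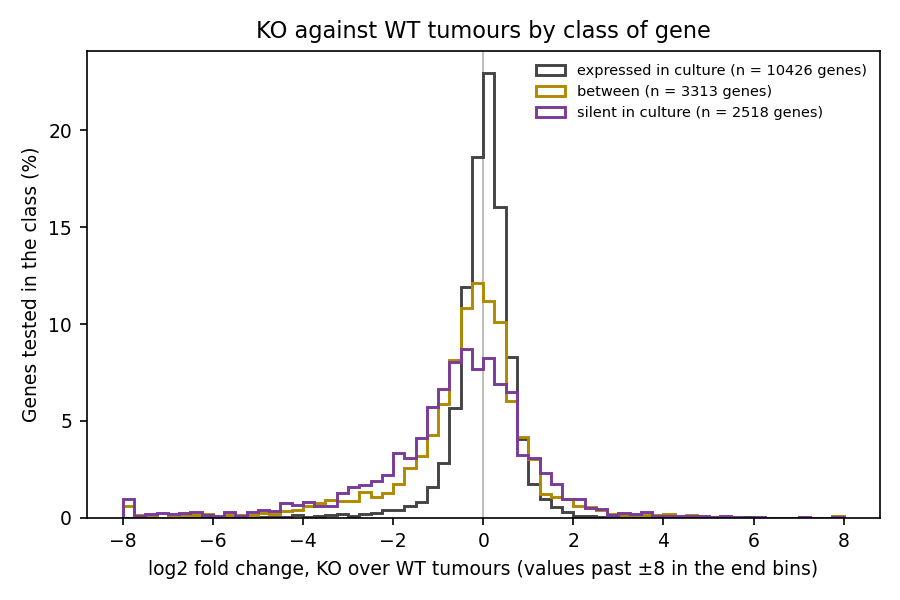
Share of the genes tested in each class (vertical axis, percent) by the log2 fold change of KO over WT tumours (horizontal axis). Expressed genes gather around their median of 0.06, while silent genes spread widely with more of them on the left, at a median of -0.42.

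These counts depend on the libraries and on the scale. With WT tumour 1, with WT tumour 2 or with KO tumour 1 left out, the genes called numbered 1258, 1171 or 1970, and without KO tumour 1 the silent class had 103 genes higher and 138 lower. Scaling by silent genes in place of all genes moved the median gene by 0.38 on the log2 scale and gave 2555 genes higher and 1093 lower, and scaling by library totals gave 1150 and 2011. Of the genes named below, Arg1, Itga3, Itgb4, Spp1 and Znrf3 did not pass when scaled by silent genes (edgeR adjusted p = 0.197, 0.0695, 0.225, 0.0833 and 0.0736), and Cd8b1, Ctss, Gbp3, Gzme and H2-DMb1 did not when scaled by library totals (0.0573, 0.0875, 0.0655, 0.053 and 0.0561).

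Itga2 (chr13:114833081-114932100, minus strand, GRCm38), the targeted gene, stood at 139, 167 and 158 CPM in the WT tumours and at 51.8 and 72.4 CPM in the KO tumours. It fell by 1.32 on the log2 scale (SE 0.18, edgeR adjusted p = 0.00602), with both KO tumours below every WT tumour and transcript left in each. Of 16 integrin genes tested 6 fell and 2 rose, with a median of -0.32 against -0.01 for all genes tested. Itga5, the fibronectin receptor chain, was at 99.4, 90.8 and 117 CPM (WT) versus 22.7 and 33.7 CPM (KO), and Itga3, a laminin receptor chain, was at 457, 481 and 520 CPM (WT) versus 224 and 215 CPM (KO). They fell by 1.86 and 1.15, and no KO tumour reached the WT range, as for 27.5% of all genes tested. Itgb4, the beta chain of hemidesmosomes, fell by 0.98 from 319 ± 37.2 to 161 ± 49.8 CPM (SD, n = 3 and 2), a call that failed on leaving out WT tumour 1 (0.069) or else WT tumour 2 (0.075). Itga7, another laminin receptor chain, and Itgb6, whose product activates latent TGF-beta, rose by 1.32 and 1.55. The call of Itga7 failed on leaving out WT tumour 1 (0.098) or else WT tumour 2 (0.084) and that of Itgb6 on leaving out WT tumour 1 (0.13), WT tumour 2 (0.081), WT tumour 3 (0.10) or else KO tumour 1 (0.20), where 0.87 was left of its log2 fold change (edgeR adjusted p in brackets throughout). Without WT tumour 1 or WT tumour 2 the list had 3 genes lower and none higher. Omitting WT tumour 3 or KO tumour 1 left 1 higher, and the median was -0.52 without KO tumour 3. Scaled by silent genes 2 were lower and 3 higher, with a median of 0.05.

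Genes of the gastric surface were the epithelial list with the largest share that rose. Of 18 tested members 12 rose and 1 fell, with a median of 1.55, against 8.78% higher and 10.9% lower among all genes tested. Tff1, a trefoil peptide secreted with gastric mucus, was at 111, 94.5 and 161 CPM in the WT tumours and at 3254 and 1192 CPM in the KO tumours. The KO tumours lay several-fold above the WT tumours, and the log2 fold change was 4.19 (SE 0.45, edgeR adjusted p = 0.00312). Tff2, the trefoil peptide of gastric neck cells, was at 38.4, 74.4 and 77.9 CPM (WT) versus 544 and 423 CPM (KO), a rise of 2.93 (SE 0.31, edgeR adjusted p = 0.00301). Vsig1, an adhesion protein of gastric epithelium, was at 152, 134 and 170 CPM (WT) versus 574 and 512 CPM (KO). Cldn18, a claudin of the stomach, was at 168, 157 and 169 CPM (WT) versus 498 and 415 CPM (KO). Replicates lay close together for these genes, which rose by 1.84 and 1.47. Sult1c2, a cytosolic sulfotransferase, rose by 1.66 from 121 ± 13.6 to 380 ± 103 CPM.

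The secreted peptides and mucins were less even. Muc5ac, which builds the mucus gel of the stomach, was at 0, 0.583 and 0.246 CPM (WT) versus 16.4 and 12 CPM (KO). Gkn2 (chr6:87373357-87379497, plus strand) and Gkn1 (chr6:87345650-87350942, minus strand) encode secreted peptides of the gastric surface. Gkn2 was at 0.397, 1.46 and 3.35 CPM (WT) versus 693 and 26.1 CPM (KO), and Gkn1 at 0.567, 2.27 and 4.92 CPM (WT) versus 281 and 7.2 CPM (KO). KO tumour 1 held most of both transcripts: without it the log2 fold change of Gkn2 was 3.90 in place of 7.65 and that of Gkn1 was 1.48 in place of 5.77. The call of Gkn2 failed on leaving out WT tumour 1 (0.0527) or else WT tumour 2 (0.064) and that of Gkn1 on leaving out WT tumour 1 (0.10), WT tumour 2 (0.12), WT tumour 3 (0.078) or else KO tumour 1 (0.33). Aqp5, a water channel of glands, was the member that fell, by 3.59 from 1.63 ± 0.691 to 0.129 ± 0.00973 CPM, a call that failed on leaving out KO tumour 1 (0.062).

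Genes of the absorptive brush border rose beside the gastric genes. Of 18 tested members 9 rose and none fell, with a median of 1.03, against 8.78% higher and 10.9% lower among all genes tested. Alpi, the intestinal alkaline phosphatase, was at 7.03, 6.23 and 13.7 CPM (WT) versus 480 and 554 CPM (KO). Krt20, the keratin of differentiated intestinal cells, was at 286, 224 and 286 CPM (WT) versus 1132 and 754 CPM (KO). The KO tumours lay above the WT tumours for both, as for 25.7% of all genes tested. The log2 fold changes were 5.84 (SE 0.35, edgeR adjusted p = 0.000763) and 1.83 (SE 0.20, edgeR adjusted p = 0.00361). Cdhr2, a protocadherin that links microvilli, rose by 2.14 from 17.1 ± 1.67 to 75.1 ± 35.8 CPM. Lgals4, a galectin of the gut epithelium, rose by 1.41 and Myo1a, the brush border myosin, by 1.95. Fabp1, a fatty acid carrier, rose by 3.83 from 1.28 ± 0.492 to 18.2 ± 9.09 CPM. The keratin Krt8 was among the most abundant expressed genes that rose, at 2207, 1897 and 1608 CPM (WT) versus 4162 and 3321 CPM (KO), and its call failed on leaving out WT tumour 2 (0.071) or else KO tumour 1 (0.0512).

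**Figure D2:**
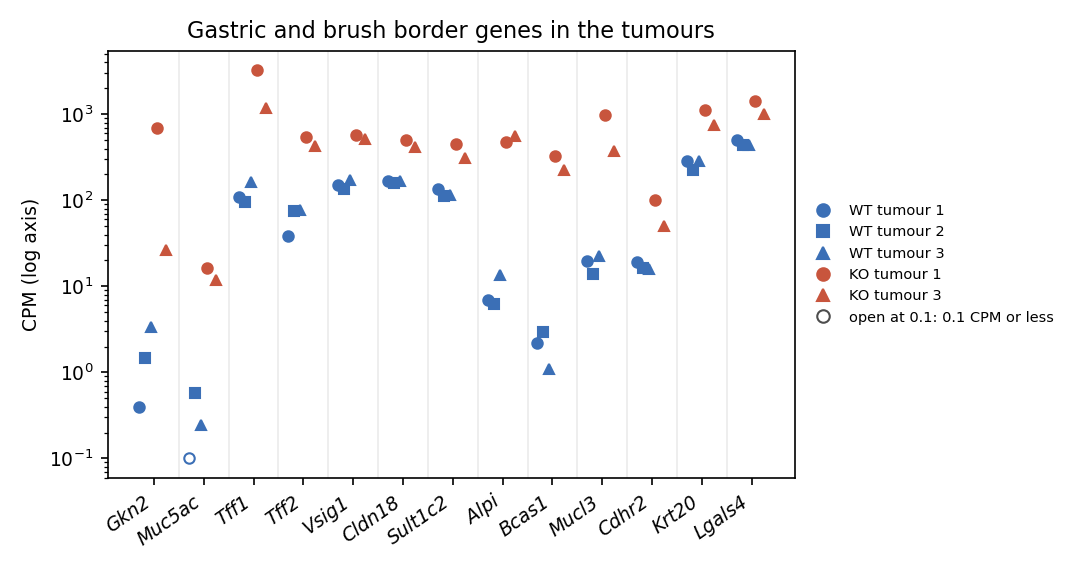
Levels of 13 gastric and brush border genes and others that rose with them (vertical axis, CPM on a log axis) in the WT and KO tumours, 1 point per library. Every KO point lies above every WT point of its gene, a condition for the genes named by size of change. The KO points of Gkn2, at 693 and 26.1 CPM, stand far apart.

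Outside these lists, Bcas1 was at 2.21, 2.91 and 1.08 CPM (WT) versus 328 and 226 CPM (KO). Mucl3, a mucin-like membrane protein, was at 19.9, 13.9 and 22.8 CPM (WT) versus 972 and 371 CPM (KO). Adgrg2, an adhesion G protein-coupled receptor, was at 2.49, 2.51 and 3.25 CPM (WT) versus 71.6 and 66.2 CPM (KO). The log2 fold changes were 7.08, 5.15 and 4.64 (edgeR adjusted p = 0.000487, 0.00162 and 0.000401). Genes named by size of change were taken only where the groups did not overlap. Mettl7b rose by 5.75, Pkhd1l1 by 4.66 and Azgp1, a secreted glycoprotein, by 4.60, all from WT means under 0.5 CPM. Of the endoderm transcription factors 4 of 14 rose and 1 fell, with a median of 0.52. The number higher was 3 with WT tumour 1, WT tumour 2 or KO tumour 3 omitted, and KO tumour 3 omitted gave 2 lower. Sox17 rose by 2.34 from 12.7 ± 2.44 to 64.1 ± 1.51 CPM, Klf4 by 1.46 and Foxa2 by 0.81. Ehf, an epithelial ETS factor, fell by 1.75, a call that failed on leaving out WT tumour 1 (0.0524) or else WT tumour 2 (0.058).

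Genes of fatty acid oxidation rose as well, 13 of 23 tested, while 2 fell, with a median of 0.60. Among all genes tested 8.78% rose and 10.9% fell. Cpt1a, which carries long fatty acids into mitochondria, was at 129, 127 and 121 CPM (WT) versus 237 and 245 CPM (KO). Cpt2, its partner on the inner membrane, was at 21.1, 22 and 24.7 CPM (WT) versus 72.4 and 51.3 CPM (KO), and Hadhb, a subunit of the trifunctional enzyme, was at 47.8, 45.3 and 48.5 CPM (WT) versus 108 and 94.3 CPM (KO). Both KO tumours were above every WT tumour for each, as for 25.7% of all genes tested. They rose by 0.94, 1.45 and 1.10 (edgeR adjusted p = 0.00361, 0.00429 and 0.0031). Of the members that fell, Acot1, an acyl-CoA thioesterase, did so by 5.03, from 12.8 ± 4.08 to 0.38 ± 0.153 CPM. With WT tumour 1, with WT tumour 2 or with KO tumour 1 left out the number that rose was 6, 5 or 8, with medians of 0.62, 0.61 and 0.50.

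Of 25 tested genes of xenobiotic and retinoid metabolism 11 rose and 3 fell, with a median of 1.08. The shares over all genes tested were 8.78% and 10.9%. Adh1, an alcohol dehydrogenase that also oxidises retinol, was at 0.397, 0.466 and 0.295 CPM (WT) versus 14.3 and 26.7 CPM (KO), and Adh7, its counterpart of the stomach, was at 17.6, 26.5 and 12.8 CPM (WT) versus 143 and 180 CPM (KO). The rises were 5.72 and 3.09, with both KO tumours above every WT tumour, as for 25.7% of all genes tested. Gsta1, a glutathione transferase, was at 2.49, 1.17 and 4.48 CPM (WT) versus 93.7 and 64.3 CPM (KO), and Cyp3a13, a cytochrome P450, rose by 3.04 from 28 ± 10.1 to 230 ± 71.9 CPM. The glutathione transferases and the Cyp3a genes have close copies, and the sources used here do not say how reads with several positions were counted, so single members are uncertain. Of the members that fell, Cyp2d22 did so by 2.08, from 26.8 ± 5.84 to 6.33 ± 0.75 CPM, and Gsta3 by 3.60, a call that failed on leaving out WT tumour 1 (0.065), WT tumour 2 (0.067), KO tumour 1 (0.11) or else KO tumour 3 (0.067).

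Other expressed genes were close to absent in KO tumours. Fgfr4, a fibroblast growth factor receptor, was at 73.3, 80.2 and 91.9 CPM (WT) versus 0.0679 and 0.427 CPM (KO). Ace, angiotensin-converting enzyme, was at 173, 176 and 216 CPM (WT) versus 1.09 and 1.83 CPM (KO), and Ogdhl, a mitochondrial oxoglutarate dehydrogenase, was at 36.9, 36.8 and 29.2 CPM (WT) versus 0.34 and 0.183 CPM (KO). The log2 fold changes were -8.28, -6.99 and -7.01 (edgeR adjusted p = 0.000487, 0.000401 and 0.000487). Expressed genes named by size of change had to be free of overlap between the groups. Kif21a, a kinesin, Hook1, an endosome adaptor, and Vangl2, a planar polarity protein, fell by 7.31, 6.38 and 5.69. Sox11, a transcription factor of embryonic tissue, fell by 6.11, Bhlhb9 by 6.05, Gspt2, a translation termination factor, by 6.00 and Slco3a1, an organic anion transporter, by 5.83.

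The most abundant expressed genes that fell did so by less. Igfbp4, a secreted binding protein of insulin-like growth factors, was at 1570, 1759 and 1674 CPM (WT) versus 593 and 635 CPM (KO), a change of -1.44 (SE 0.13, edgeR adjusted p = 0.00184). Spp1, which encodes osteopontin, was at 3632, 4452 and 3496 CPM (WT) versus 1736 and 1763 CPM (KO). Nedd4, a ubiquitin ligase, was at 1284, 1426 and 1304 CPM (WT) versus 519 and 647 CPM (KO). No KO tumour reached the WT range for any of them, as for 27.5% of all genes tested, and Spp1 and Nedd4 fell by 1.14 and 1.20.

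Genes of cell guidance and signalling changed in both directions. Their counts stand beside 8.78% higher and 10.9% lower among all genes tested. Of 28 tested genes of axon guidance 9 fell and 1 rose, although the median was -0.02 (0.36 when scaled by silent genes, which gave 3 higher), and without WT tumour 2 or KO tumour 1 the number that fell was 5 or 4. Sema6a, a membrane semaphorin silent in culture, was at 31, 35.5 and 26.1 CPM (WT) versus 0.883 and 1.4 CPM (KO). Nrp1 and Nrp2, the neuropilins that bind semaphorins and VEGF, fell by 1.91 and 1.24, while Slit1, a secreted repellent, rose by 2.72 from 5.13 ± 1.6 to 34.1 ± 8.53 CPM. Among ligands of receptor tyrosine kinases 6 of 28 rose and 5 fell, and with WT tumour 1, with WT tumour 2 or with KO tumour 1 left out the number that rose was 3. The number that fell was 3 with WT tumour 2 or KO tumour 3 omitted and 2 with KO tumour 1 omitted. Fgf1 rose by 1.17, and Vegfc, the growth factor of lymphatic vessels, fell by 4.13 from 14.5 ± 3.88 to 0.811 ± 0.666 CPM. Fgf13, in the list by its family and not a secreted ligand, rose by 2.89. Tgfb2 and Tgfb3 fell by 2.73 and 1.84, and Ptgs2, the inducible prostaglandin synthase, by 2.76 from 16.1 ± 1.98 to 2.35 ± 1.5 CPM. Slc16a3, a lactate exporter, fell by 1.55 and Slc38a1, a glutamine transporter, by 2.84, while Slc7a3, a carrier of basic amino acids, rose by 1.98 and Slc6a9, a glycine carrier, by 1.08.

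The same lines in culture differed in part in the same way. Of the 1186 expressed genes higher in KO tumours 397 were higher in KO cultures too, 69 were lower there and 720 did not pass, where 1149 of the same 10426 genes (11%) were higher in KO cultures and 1417 (13.6%) lower. Of the 1015 genes lower in KO tumours 465 were lower in KO cultures, 24 were higher and 526 did not pass. The tumour and culture comparisons share no library but share the lines, and over 10426 expressed genes their log2 fold changes had a Pearson r of 0.59 and a Spearman rho of 0.41, given as a description. In a fit of all 9 libraries the difference between the effects passed its own test for 722 of 10434 expressed genes (6.92%) and 955 of 16793 genes of all classes (5.69%).

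**Figure D3:**
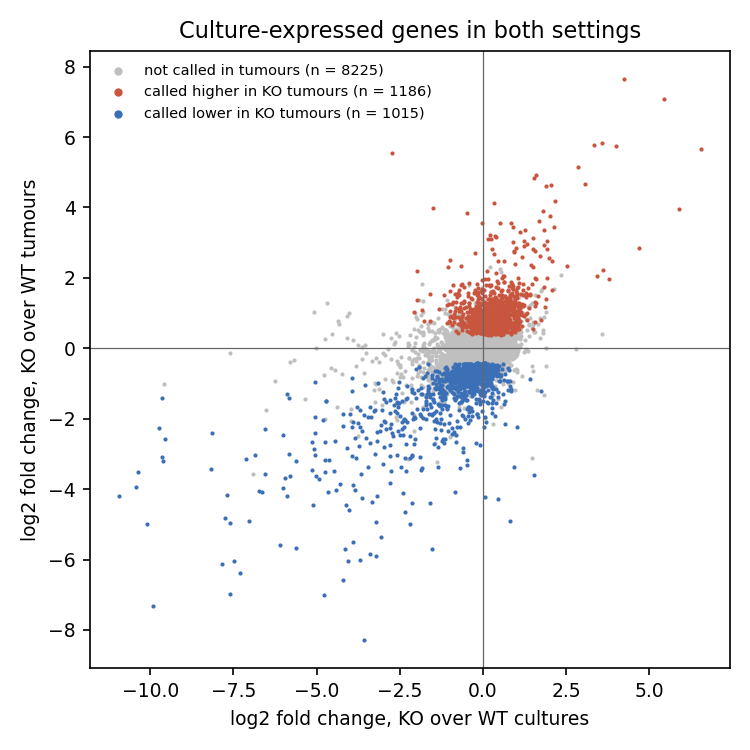
Log2 fold changes of KO over WT in culture (horizontal axis) and in tumours (vertical axis) for 10426 expressed genes, 1 point per gene, coloured by the call in tumours. The points have a Pearson r of 0.59, and 397 of the genes higher in tumours were higher in culture too.

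For several genes described above the effect in tumours differed from that in culture. Adh7 differed by 0.17 in culture and 3.09 in tumours, and Krt20 by -0.16 and 1.83. Igfbp4 differed by -0.11 in culture and -1.44 in tumours, and Ptgs2 by -0.10 and -2.76. The differences of these effects had edgeR adjusted p-values of 0.00334, 0.00304, 0.00614 and 0.00378. Fgfr4, Slco3a1 and Adgrg2 moved the same way in both settings and by more in tumours (adjusted p for the difference 0.00289, 0.00382 and 0.00084). Tff3, a trefoil peptide of goblet cells, went in opposite directions. It was at 16.6 CPM in WT cultures and 2.52 CPM in KO cultures on average, and at 0.283, 0.932 and 0.295 CPM (WT) versus 42.8 and 4.64 CPM (KO) tumours, and its call in tumours failed on leaving out WT tumour 1 (0.0537) or else WT tumour 3 (0.0519), with 3.22 as its log2 fold change without KO tumour 1 in place of 5.56. The mitochondrial transcript mt-Nd1, for a subunit of the respiratory chain, was at 3425 CPM in WT cultures and 1686 CPM in KO cultures, and at 1975, 1856 and 2063 CPM (WT) versus 3741 and 2938 CPM (KO) tumours. It rose by 0.77 in tumours against a culture difference of -1.02 (adjusted p for the difference 0.00357), and its call in tumours failed on leaving out WT tumour 1 (0.081) or else WT tumour 2 (0.09).

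Most tested genes of intestinal stem cells and Wnt targets fell. Of 18 tested members 11 fell and none rose, with a median of -3.86, against 10.9% lower among all genes tested. Lgr5 (chr10:115450311-115587780, minus strand), the receptor that marks crypt stem cells, was at 41.4, 50.5 and 13.6 CPM in the WT tumours and had no count in the KO tumours, at least 352-fold lower from a floor of 3 counts over the group. Axin2 (chr11:108920349-108950783, plus strand), a feedback inhibitor that beta-catenin induces, was at 26.2, 63.1 and 12.7 CPM (WT) versus 0.408 and 0.672 CPM (KO). Both belong to the silent class, under 0.5 CPM in every culture. Tnfrsf19, a receptor of crypt stem cells, fell by 4.99 from 2.26 ± 0.496 to 0.0645 ± 0.00486 CPM, and Apcdd1, a Wnt inhibitor, by 4.40. The KO level of Tnfrsf19 is a few counts at most, so its SD does not measure the spread between tumours. Ephb2 and Ephb3, ephrin receptors of the crypt, fell by 3.32 and 3.16, and Znrf3, a ubiquitin ligase that removes Wnt receptors, by 1.17 from 29.1 ± 1.86 to 12.9 ± 0.522 CPM. The call of Axin2 failed on leaving out KO tumour 1 (0.0502), and the list had 10 to 12 genes lower without each library in turn. The median of the list was the same with the 4 members that had no KO count set at their bounds. By limma-voom Axin2 did not pass (adjusted p = 0.0668).

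Ctnnb1 (chr9:120929216-120960507, plus strand), which encodes beta-catenin itself, was the most abundant expressed gene that fell. It was at 5841, 7424 and 2821 CPM in the WT tumours, at 1518 and 1404 CPM in the KO tumours, at 1289 and 1275 CPM in WT cultures and at 1134 and 1134 CPM in KO cultures. The WT tumours were thus the highest libraries, although tumours and cultures were scaled apart and differ in batch label. WT tumour 2 was on top and WT tumour 3 lowest of them, an order that Lgr5, Axin2, Map3k21 and Kcns3 had too. In the KO tumours the order of Axin2 was the reverse of that of Ctnnb1, and a link between these levels was not tested. The log2 fold change of Ctnnb1 was -1.88 (SE 0.40, edgeR adjusted p = 0.0214), against -0.18 in culture, with an adjusted p of 0.0493 for the difference of the effects. Its call failed on leaving out WT tumour 1 (0.064), WT tumour 2 (0.059), KO tumour 1 (0.085) or else KO tumour 3 (0.066), at log2 fold changes of -1.83, -1.58, -1.92 and -1.81. Tcf7, a transcription factor that works with beta-catenin and is also a T cell gene, was expressed in WT cultures at 11 CPM and fell by 3.50 from 41.6 ± 6.03 to 3.65 ± 1.23 CPM in tumours.

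**Figure D4:**
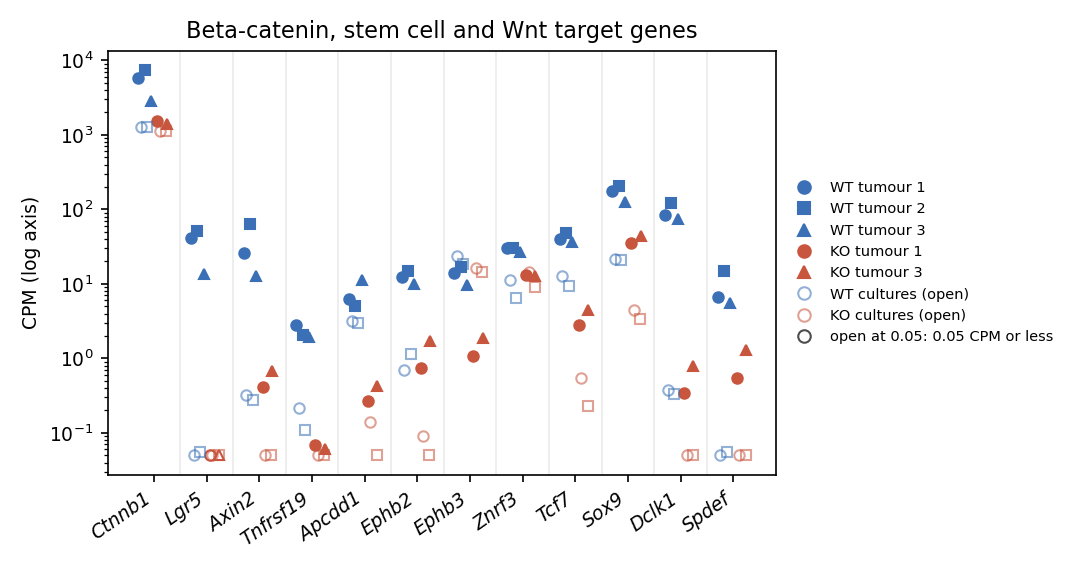
Levels of Ctnnb1, stem cell, Wnt target, ductal and tuft cell genes (vertical axis, CPM on a log axis, scaled within tumours or within cultures) in the WT and KO tumours and cultures, 1 point per library. Ctnnb1 is highest in the WT tumours, at 5841, 7424 and 2821 CPM, and Lgr5 has no count in the KO tumours.

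RefSeq promoter windows on GRCm38.p6, from 250 bases before a start to 50 after, were at hand for 13 of the 19 list members. Of their 21 windows 2 had a match to the core of the TCF site (ATCAAAG or TTCAAAG, either strand), a share near the 8.65% of all 32851 windows that have one. A window of Tnfrsf19 is shown because it is the named member with a match, in capitals, read on the strand of the gene (minus, chr14:61037938-61038237).
Tnfrsf19: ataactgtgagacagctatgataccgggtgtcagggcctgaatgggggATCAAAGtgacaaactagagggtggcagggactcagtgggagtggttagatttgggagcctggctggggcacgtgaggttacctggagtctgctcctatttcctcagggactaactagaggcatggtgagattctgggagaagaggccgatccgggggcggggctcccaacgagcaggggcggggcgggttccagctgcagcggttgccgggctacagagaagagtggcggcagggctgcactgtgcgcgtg
The window of another start of Tnfrsf19 and that of Axin2 have no match. A match describes these letters and is not a site.

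Other genes of gut lineages changed beside them. Dclk1, a marker of tuft cells and of some stem-like cells, was at 83.3, 121 and 74.8 CPM (WT) versus 0.34 and 0.794 CPM (KO), and Sh2d6, another tuft cell gene, fell by 5.01 from 7.39 ± 2.72 to 0.217 ± 0.211 CPM. These were the 2 of 8 tested tuft cell genes that passed, where 19.7% of all genes tested did, and they make up the count without any single WT tumour too. Of the 8, 4 were above 0 and 4 below. Avil, advillin of tuft cells, was at 243, 231 and 239 CPM (WT) versus 290 and 316 CPM (KO) and did not pass (edgeR adjusted p = 0.0666). Of 6 secretory genes Spdef, the transcription factor of goblet cells, and Muc2, the intestinal mucin, fell by 3.28 and 4.01, while Clca1 and Fcgbp, secreted goblet cell proteins, rose by 2.56 and 3.20. These calls rest on single libraries: that of Spdef failed on leaving out KO tumour 1 (0.072), that of Muc2 on leaving out KO tumour 1 (0.15) or else KO tumour 3 (0.062), that of Clca1 on leaving out WT tumour 1 (0.062), WT tumour 2 (0.066) or else WT tumour 3 (0.067) and that of Fcgbp on leaving out WT tumour 1 (0.075), WT tumour 2 (0.058), WT tumour 3 (0.071) or else KO tumour 1 (0.066). Muc2 did not pass the filter with WT tumour 1 or WT tumour 2 omitted and was not tested there. Without KO tumour 1 the log2 fold changes of Clca1 and Fcgbp were 1.24 and 1.49, and without KO tumour 3 that of Muc2 was -6.47.

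Ductal genes went both ways, with 2 of 10 higher and 3 lower, against 8.78% and 10.9% of all genes tested. With WT tumour 1 or WT tumour 2 omitted these counts were 1 and 2, and with KO tumour 3 omitted 4 and 2. Sox9, the ductal transcription factor, was at 178, 204 and 124 CPM (WT) versus 35.5 and 44 CPM (KO). Cftr, the chloride channel of the duct, was at 188, 273 and 201 CPM (WT) versus 62.2 and 32.4 CPM (KO). Krt19, the ductal keratin, was at 1314, 1065 and 1094 CPM (WT) versus 2827 and 1932 CPM (KO). Sox9 and Cftr fell by 2.09 and 2.22 and Krt19 rose by 1.04 (edgeR adjusted p = 0.00384, 0.00699 and 0.015), a call that failed on leaving out WT tumour 2 (0.069). Of the junction genes 4 of 20 rose and 4 fell, and without WT tumour 1 or WT tumour 2 the counts were 1 and 2, with WT tumour 3 omitted 1 and 5, and with KO tumour 1 omitted 2 and 4. Cldn2 fell by 1.31 and Cldn7 by 4.21, from 24.2 ± 3.74 to 1.3 ± 0.584 CPM. Cdh1, the epithelial cadherin, was at 1211, 1134 and 1000 CPM (WT) versus 1507 and 1226 CPM (KO) and did not pass (edgeR adjusted p = 0.213).

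In the Notch pathway 6 of 16 tested genes fell, against 10.9% of all genes tested, with a median of -0.53. With WT tumour 1 left out 1 gene fell, with WT tumour 2 left out none, and with KO tumour 1 left out 2. With WT tumour 3 omitted 4 fell, and with KO tumour 3 omitted 5 fell and 3 rose. The count was 0 when scaled by silent genes, with a median of -0.15. Of 22 genes of DNA replication and mitosis 2 fell, no larger a share than the 10.9% of all genes tested. With KO tumour 3 omitted 7 fell, with WT tumour 3 omitted 1, and with WT tumour 1, WT tumour 2 or KO tumour 1 omitted none, while 1 rose in the last of these. The median turned from -0.15 to 0.07 with WT tumour 3 omitted, to 0.18 with KO tumour 1 omitted and to 0.16 when scaled by silent genes.

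The silent class held genes on in WT tumours with no count in KO tumours. Map3k21, a kinase of the MAP kinase cascade, was at 32.5, 67.2 and 14.3 CPM in WT, at least 379-fold lower in KO. Kcns3, a potassium channel subunit, was at 10.0, 12.5 and 2.76 CPM, at least 84.1-fold lower in KO. WT tumour 3 was the lowest WT tumour for both. Pamr1 went from a WT mean of 13.1 CPM to 3 counts among KO tumours, which is a ratio of 0.00744 (95% counting interval from 0.00153 up to 0.0218), and Sfmbt2, a polycomb group protein, from 5.43 CPM to 1 count, a ratio of 0.00611 (95% counting interval from 0.000154 up to 0.0343). Ifitm1, an interferon-induced membrane protein, was at 35, 72 and 68.5 CPM (WT) versus 0.408 and 1.83 CPM (KO), and Sema6a, described above, fell by 4.74. Heph, a copper oxidase of iron export, fell by 5.94, a call that failed on leaving out KO tumour 1 (0.058), and had a log2 fold change of -10.17 without KO tumour 3. Intervals and floors cover counting error only.

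Of the 317 silent genes that fell, 14 are in the lists of host cell and immune genes, 12 in the lists of epithelial and signalling genes alone and 291 in no list. Some genes named for immune cells were present where that cell type's defining marker was near 0, or in the line itself. The B cell kinase Blk was at 7.03, 7.52 and 8.76 CPM in WT and had 2 counts among KO tumours, which is a ratio of 0.00823 (95% counting interval from 0.000993 up to 0.0299), while Ms4a1, which defines B cells, was at 0, 0 and 0.197 CPM (WT) versus 0.0679 and 0.244 CPM (KO) and was not tested. Of 5 tested genes of the B and plasma cell list, Blk included, 1 rose and 1 fell, with 3 above 0. Among all genes tested 8.78% rose and 10.9% fell, and with any single WT tumour omitted no gene of this list rose. The list summed to 11.4, 11.1 and 14.0 CPM (WT) versus 4.55 and 13.4 CPM (KO). Blk made up most of each WT sum, and KO tumour 3 lay within the WT range only with Blk counted. Gzme, a granzyme, Mcpt8, a basophil protease, and Tcf7 were expressed by the WT line in culture, at 18.2, 33.5 and 11 CPM. In KO tumours Gzme and Mcpt8 fell by 3.05 and 2.64, calls that failed on leaving out WT tumour 1 (0.12), WT tumour 2 (0.13) or else WT tumour 3 (0.09) for Gzme and WT tumour 1 (0.064), WT tumour 2 (0.07) or else WT tumour 3 (0.061) for Mcpt8. Without KO tumour 3 their log2 fold changes were -6.60 and -4.11.

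Fewer silent genes were higher in KO tumours. Cym, chymosin, a gastric protease, was at 6.35, 9.38 and 2.36 CPM (WT) versus 189 and 91.6 CPM (KO). Lgals12, a galectin, was at 1.25, 1.69 and 0.788 CPM (WT) versus 62 and 19.9 CPM (KO), and Atp6v0d2, a subunit of a proton pump, was at 4.59, 6 and 1.28 CPM (WT) versus 65.8 and 34.6 CPM (KO). They rose by 4.55, 5.05 and 3.67 (edgeR adjusted p = 0.00415, 0.00337 and 0.00884), with KO tumour 1 the higher in each. Silent genes named by size of change were taken only where the groups did not overlap. Tm4sf5, a membrane protein with 4 spans, rose by 3.42 from 4.71 ± 0.802 to 50.5 ± 39.1 CPM, Atp8a2, a lipid flippase, by 4.17 and Piwil4, a PIWI protein, by 2.73. Ano7 at 24.9 and 2.5 CPM and Pla2g12b at 10.5 and 0.611 CPM in KO tumours 1 and 3 were far higher in KO tumour 1. Their log2 fold changes were 4.78 and 5.37, and 2.35 and 2.22 without that tumour. The call of Ano7 failed on leaving out WT tumour 1 (0.065), WT tumour 2 (0.061), WT tumour 3 (0.064) or else KO tumour 1 (0.056) and that of Pla2g12b on leaving out WT tumour 1 (0.084), WT tumour 2 (0.089), WT tumour 3 (0.08) or else KO tumour 1 (0.15).

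Among the host lists the fibroblast markers had the most genes that passed. Of 16 tested 9 fell and none rose, against 10.9% and 8.78% of all genes tested. All 16 were below 0, and the median was -1.92. Postn, periostin of activated fibroblasts, was at 297, 157 and 212 CPM (WT) versus 46.2 and 65.1 CPM (KO). Col1a2, a chain of collagen I, was at 567, 371 and 975 CPM (WT) versus 142 and 206 CPM (KO). Both KO tumours were below every WT tumour for these, as for 27.5% of all genes tested. WT tumour 3 held the most Col1a2 and KO tumour 1 the least. Pdpn, a fibroblast and lymphatic glycoprotein, fell by 4.30 from 3.93 ± 1.78 to 0.193 ± 0.0146 CPM, a KO level of a few counts whose SD does not measure the spread between tumours. Col12a1, a collagen, and Tnc, tenascin, which are not in this list, fell by 3.16 and 3.14. Twist2, a mesenchymal factor of the list that WT cultures had at 2.62 CPM, fell by 5.70. Pdgfra, a receptor that defines many fibroblasts, was at 5.55, 3.79 and 11.4 CPM (WT) versus 0.136 and 2.08 CPM (KO) and did not pass (edgeR adjusted p = 0.0941). In bulk samples fewer cells of a type and less RNA per cell cannot be told apart. Without WT tumour 1 the list had 4 genes lower and without KO tumour 1 it had 5, and the call of Col1a2 failed on leaving out WT tumour 1 (0.059) or else KO tumour 1 (0.12).

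Vessel genes moved less. No gene of the pericyte and smooth muscle list passed of 11 tested, at a median of -0.44 that was -0.10 with WT tumour 3 omitted. By edgeR 1 had an unadjusted p under 0.05, and DESeq2 and limma-voom called 0. Pdgfrb, the pericyte receptor, was at 30.0, 22.3 and 40.5 CPM (WT) versus 18 and 22.6 CPM (KO), so the groups overlapped. All 16 tested blood endothelial genes were below 0, with a median of -0.78, and 2 fell, a share near the 10.9% of all genes tested. The median was -0.32 with WT tumour 3 omitted, when 2 genes were above 0, -0.34 with KO tumour 1 omitted, when 1 was, -1.23 with KO tumour 3 omitted and -0.41 when scaled by silent genes. The count that fell was 1 with WT tumour 2 or KO tumour 1 omitted and 3 with KO tumour 3 omitted. Pecam1, which defines endothelium, was at 24.4, 18.2 and 40.3 CPM (WT) versus 10.3 and 23.1 CPM (KO) and did not pass (edgeR adjusted p = 0.285). Flt1, a VEGF receptor that the WT line also had in culture at 21.5 CPM, fell by 2.06 from 128 ± 3.78 to 30.8 ± 9.91 CPM, and Vwf by 2.43, a call that failed on leaving out WT tumour 2 (0.0545) or else KO tumour 1 (0.075). In the summed silent members of the fibroblast list the libraries stood at 1292, 798 and 2052 CPM (WT) versus 300 and 453 CPM (KO), and in those of the endothelial list at 118, 95.1 and 217 CPM (WT) versus 56.5 and 105 CPM (KO). WT tumour 3 was the highest in both. With it omitted 8 fibroblast genes fell, at a median of -1.42.

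**Figure D5:**
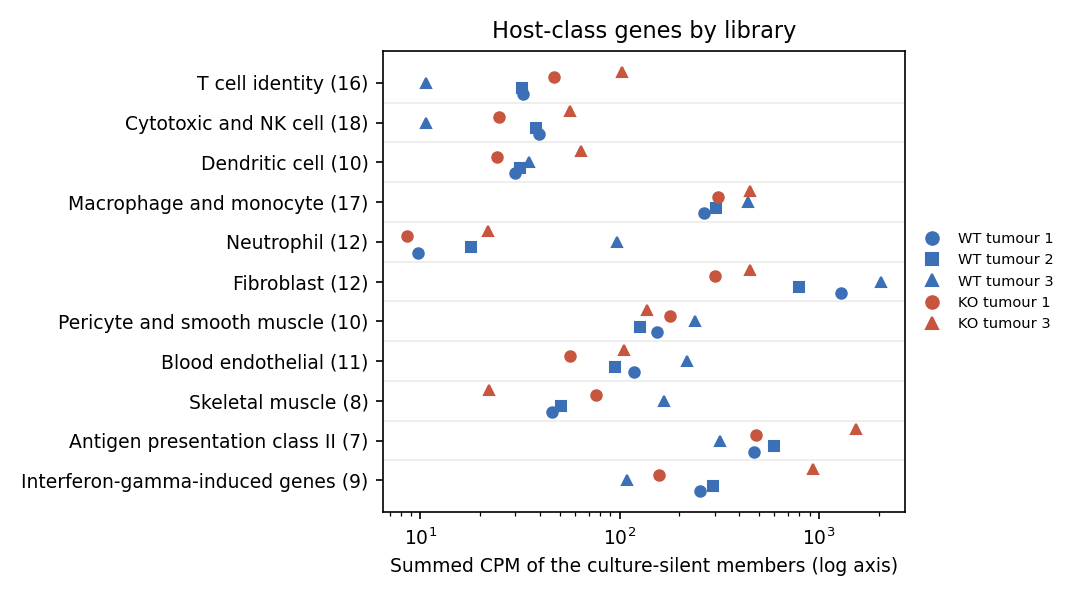
Summed CPM of the silent members of each list (horizontal axis, log axis) for each tumour library, with the number of silent members in brackets. The fibroblast sums of both KO tumours, at 300 and 453 CPM, lie below those of every WT tumour, and KO tumour 3 is the highest for the T cell list at 103 CPM.

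T cell transcripts were above 0 in direction, but few passed. All 17 tested genes of T cell identity had a positive log2 fold change, with a median of 1.43. Of these 11 had both KO tumours above every WT tumour, as 25.7% of all genes tested do. The 2 that rose stand beside 8.78% of all genes tested. Cd8b1, the beta chain of CD8, was at 1.7, 0.932 and 0.246 CPM (WT) versus 3.19 and 9.34 CPM (KO), and Trbc1, a constant region of the T cell receptor, was at 0.793, 0.524 and 0.0984 CPM (WT) versus 3.74 and 3.72 CPM (KO). They rose by 2.72 and 2.99 (edgeR adjusted p = 0.0475 and 0.0228). Cd8a was at 10.0, 10.7 and 1.92 CPM (WT) versus 13.9 and 26.4 CPM (KO) and Cd3e, of the receptor complex, at 1.76, 3.03 and 0.295 CPM (WT) versus 4.21 and 8.55 CPM (KO), and neither passed (adjusted p = 0.174 and 0.128). Cd4 was at 1.7, 1.22 and 0.886 CPM (WT) versus 0.747 and 5.56 CPM (KO) and overlapped.

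The T cell sums were 44.1, 43.9 and 17.1 CPM (WT) versus 56.9 and 128 CPM (KO), lowest in WT tumour 3 and highest in KO tumour 3. The call of Cd8b1 failed on leaving out WT tumour 1 (0.063), WT tumour 2 (0.14), WT tumour 3 (0.079) or else KO tumour 3 (0.18), with 1.75 left of its log2 fold change without KO tumour 3, and that of Trbc1 on leaving out WT tumour 2 (0.084) or else KO tumour 1 (0.068). Without KO tumour 3 the median of the list was 0.89, with 11 genes above 0. Without KO tumour 1 5 genes rose, without WT tumour 2 none, and scaled by silent genes 11. With any of the other tumours omitted, or scaled by library totals, 1 rose.

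Genes of cytotoxic cells did not share a direction, with 1 of 15 higher and 3 lower, against 8.78% and 10.9% of all genes tested. The 3 lower were the granzymes Gzmc, Gzmd and Gzme, and Gzme was expressed by the WT line in culture. Of the 15, 9 were above 0 and 6 below. With WT tumour 1 or WT tumour 2 omitted 1 was lower, with KO tumour 1 or KO tumour 3 omitted 2 were, and scaled by silent genes 5 were higher and 4 lower. The median of 0.91 was 1.73 with KO tumour 1 omitted and -0.53 with KO tumour 3 omitted. Gzmb, granzyme B, was at 7.08, 8.27 and 1.13 CPM (WT) versus 1.29 and 10.1 CPM (KO), with a log2 fold change of 0.07 and overlap of the groups. Ccl5, a chemokine of T and NK cells, was at 1.25, 0.699 and 0.738 CPM (WT) versus 3.87 and 7.02 CPM (KO) and rose by 2.60 (SE 0.43, edgeR adjusted p = 0.0106), a call that failed on leaving out WT tumour 2 (0.0533). Gzmd fell by 4.07 from 3.37 ± 1.17 to 0.193 ± 0.0146 CPM, and Gzmc by 2.84, a call that failed on leaving out WT tumour 1 (0.12), WT tumour 2 (0.13), KO tumour 1 (0.10) or else KO tumour 3 (0.15). Gzmc, Gzmd and Gzme are close copies, so reads may have been split between them, and their values are uncertain. The KO level of Gzmd is a few counts per library, so its SD does not measure the spread between tumours. Of 10 dendritic cell genes Xcr1, of the cross-presenting subset, rose by 2.48 from 0.3 ± 0.199 to 1.67 ± 0.92 CPM, a call that failed on leaving out WT tumour 1 (0.13), WT tumour 2 (0.057), WT tumour 3 (0.094), KO tumour 1 (0.0512) or else KO tumour 3 (0.18).

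Genes induced by interferon gamma followed KO tumour 3. All 23 tested had a positive log2 fold change, with a median of 1.18, and 3 rose, against 8.78% of all genes tested. Gbp3 (chr3:142560026-142573209, plus strand), a guanylate-binding protein, was at 26.5, 27.9 and 18.2 CPM (WT) versus 35.1 and 125 CPM (KO). Ido1, which degrades tryptophan, was at 3.57, 3.55 and 0.492 CPM (WT) versus 15.4 and 70.3 CPM (KO), and Cxcl11, a ligand of CXCR3, was at 2.15, 1.63 and 0.541 CPM (WT) versus 4.08 and 14.4 CPM (KO). In each, KO tumour 3 was more than 3 times as high as KO tumour 1. The summed level of the list was 992, 1091 and 589 CPM (WT) versus 814 and 2685 CPM (KO), so KO tumour 1 lay within the WT range. Without KO tumour 3 the median was -0.06, 9 of 23 genes were above 0 and none passed, and without KO tumour 1 13 rose. With WT tumour 1 or WT tumour 2 omitted none rose and with WT tumour 3 omitted 1 did, while 15 rose when scaled by silent genes and 2 when scaled by library totals. Gbp3 rose by 1.73, a call that failed on leaving out WT tumour 1 (0.12), WT tumour 2 (0.12), WT tumour 3 (0.14) or else KO tumour 3 (0.18), Ido1 by 4.09, which failed on leaving out WT tumour 1 (0.06), WT tumour 2 (0.066) or else KO tumour 3 (0.07), and Cxcl11 by 2.69, which failed on leaving out WT tumour 1 (0.077), WT tumour 2 (0.12), WT tumour 3 (0.081) or else KO tumour 3 (0.16). Without KO tumour 3 the log2 fold changes of Gbp3, Ido1 and Cxcl11 were 0.55, 2.62 and 1.51. Gbp genes are close copies, and single members are uncertain. Cxcl9, another ligand of CXCR3, was at 18.2, 23.8 and 7.24 CPM (WT) versus 15.9 and 123 CPM (KO) and did not pass (adjusted p = 0.115).

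Of the 23 members 16 had a RefSeq promoter window (GRCm38.p6), and 12 of their 19 windows had a match to the gamma-activated site (TTCNNNGAA) or to the interferon-stimulated element (GAAA, any 2 bases, GAAA), on either strand, against 11.29% of all 32851 windows. The windows of Gbp3, which rose, and of Igtp, an immunity GTPase at 25.8, 28 and 13.9 CPM (WT) versus 31.3 and 109 CPM (KO) that did not pass (edgeR adjusted p = 0.0687), show the matches in capitals. Both genes lie on the plus strand (chr3:142559794-142560093 and chr11:58199306-58199605).
Gbp3: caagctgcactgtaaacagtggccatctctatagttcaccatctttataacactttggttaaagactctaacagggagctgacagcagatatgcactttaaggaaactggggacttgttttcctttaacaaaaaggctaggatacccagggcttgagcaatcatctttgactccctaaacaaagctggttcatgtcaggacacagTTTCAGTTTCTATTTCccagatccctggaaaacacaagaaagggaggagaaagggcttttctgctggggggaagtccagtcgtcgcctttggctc
Igtp: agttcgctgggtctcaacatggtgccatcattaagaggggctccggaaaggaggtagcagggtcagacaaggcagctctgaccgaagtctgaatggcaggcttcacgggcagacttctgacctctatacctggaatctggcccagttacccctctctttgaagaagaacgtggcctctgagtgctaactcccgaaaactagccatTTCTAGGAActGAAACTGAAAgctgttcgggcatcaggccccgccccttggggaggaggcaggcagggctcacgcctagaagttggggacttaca
Overlapping matches form 1 run of capitals. The matches describe the list and not the tumours, and another start of Gbp3 has a window with none.

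Genes of class II antigen presentation were highest in KO tumour 3 as well. The list summed to 510, 639 and 346 CPM (WT) versus 534 and 1649 CPM (KO). Cd74, the invariant chain, was at 246, 323 and 136 CPM (WT) versus 288 and 789 CPM (KO) and did not pass (edgeR adjusted p = 0.122). H2-DMb1, an expressed gene whose product loads peptides, rose by 1.19 from 25.8 ± 6.34 to 58.8 ± 24.1 CPM, a call that failed on leaving out WT tumour 1 (0.10), WT tumour 2 (0.086), WT tumour 3 (0.09) or else KO tumour 3 (0.12), with 0.71 as its log2 fold change without KO tumour 3. The median of the 8 tested genes was 1.15, and -0.11 without KO tumour 3. Without KO tumour 1 6 rose, as did 6 when scaled by silent genes, against 0 when scaled by library totals.

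Few macrophage genes and no neutrophil genes passed. Of 17 macrophage genes 1 fell and none rose, with a median of 0.29, and for 13 of them the groups overlapped. The median was -0.31 with KO tumour 3 omitted, 0.62 with KO tumour 1 omitted, 0.61 with WT tumour 3 omitted, 0.18 with WT tumour 1 omitted and 0.12 with WT tumour 2 omitted. Scaled by silent genes 5 rose and none fell. C1qa, a complement chain of macrophages, was at 36.8, 40.0 and 64.1 CPM (WT) versus 57.1 and 90.4 CPM (KO), with overlap. Arg1, arginase, was at 30.0, 32.5 and 27.6 CPM (WT) versus 13 and 20.1 CPM (KO) and fell by 0.86, a call that failed on leaving out WT tumour 1 (0.12), WT tumour 2 (0.14), WT tumour 3 (0.067) or else KO tumour 1 (0.096), with -0.56 left of its log2 fold change without KO tumour 1. Ctss, cathepsin S of antigen-presenting cells, rose by 0.87 from 54.1 ± 8.27 to 99.2 ± 36.9 CPM, a call that failed on leaving out WT tumour 1 (0.16), WT tumour 2 (0.15), WT tumour 3 (0.078) or else KO tumour 3 (0.14), with 0.44 left without KO tumour 3. None of 7 neutrophil genes passed by edgeR, DESeq2 or limma-voom, and 0 had an unadjusted p under 0.05. Their sum was 9.75, 17.9 and 97 CPM (WT) versus 8.56 and 21.9 CPM (KO), so WT tumour 3 stood apart, and the median was -1.74 with that tumour and -0.05 without it, and -2.68 with KO tumour 3 omitted.

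Secreted immune factors went both ways. In a list of chemokines that leaves out Ccl5, Cxcl9 and Cxcl11, given above, 4 of 20 fell and none rose. The shares over all genes tested were 10.9% and 8.78%. With WT tumour 2 omitted 1 fell, with KO tumour 1 omitted 2 fell and 1 rose, and scaled by silent genes 6 fell and 4 rose. The median of -1.19 became 0.12 with WT tumour 3 omitted. Cxcl14, a chemokine silent in culture, was at 24.1, 19.9 and 16.5 CPM (WT) versus 2.85 and 4.15 CPM (KO) and fell by 2.52 (SE 0.29, edgeR adjusted p = 0.0037). Cfb, a component of the alternative complement pathway, was at 20.1, 19.8 and 25.8 CPM (WT) versus 71.7 and 67.4 CPM (KO). It rose by 1.67 (edgeR adjusted p = 0.00215), with both KO tumours above every WT tumour, as for 25.7% of all genes tested. Il15, a cytokine that sustains CD8 T cells and NK cells, was at 6.46, 4.78 and 6.4 CPM (WT) versus 21.3 and 19 CPM (KO) and rose by 1.77. Il18, an epithelial cytokine, rose by 2.40 from 6.79 ± 2.13 to 35.8 ± 21.9 CPM, and by 1.60 without KO tumour 1. Both were present in the WT cultures, at 7.26 and 2.29 CPM.

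Genes of flank muscle and blood moved with single tumours. The skeletal muscle sum was 67.7, 67.4 and 201 CPM (WT) versus 114 and 48.7 CPM (KO), highest in WT tumour 3, and 2 of 10 genes fell, none without WT tumour 2 or WT tumour 3 and 1 without any of the others. The median of -0.67 became 0.75 with WT tumour 3 omitted, 0.21 with KO tumour 3 omitted and -1.47 with KO tumour 1 omitted. The sum of the red cell and platelet list was 16.5, 10.8 and 25.7 CPM (WT) versus 49.4 and 11.8 CPM (KO), highest in KO tumour 1, and none of 9 passed, where 3 had an unadjusted p under 0.05 by edgeR and DESeq2 called 1. The part of muscle and blood in the results was not tested.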

How the data were processed

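RNA of 5 tumours and 4 cultures was sequenced from libraries with molecular identifiers and ERCC spike-ins, with duplicates removed, per the labels' protocols. The authors deposited raw read counts per gene on GRCm38. The submitters' processing notes name fastp 0.23.1, STAR 2.5.2b, Subread 1.5.2, featureCounts and DESeq2. Strand setting and annotation release were not given in the sources used here, and there are 0 spike-in rows. Names came from GENCODE M21 for 49412 of 49671 genes, and the other genes hold 0.0238% of tumour counts.

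Counts of the 5 tumours were filtered (filterByExpr, 10 counts, 15 in total), TMM-normalised and compared by edgeR 4.0.16's quasi-likelihood test in R 4.3.3, with Benjamini-Hochberg adjustment over all genes tested and a threshold of 0.05. Levels are CPM scaled by TMM within tumours or within cultures. Where a KO mean rests on a few counts per library or fewer, as for Aqp5, Gzmd, Pdpn and Tnfrsf19, its SD reflects library size and not the spread between tumours. The standard error is the size of the log2 fold change over the square root of F. Cultures were fitted alone, and the difference of the effects in a fit of all 9 libraries. The code was tested on simulated data.

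Named genes were Itga2, the 12 largest changes per class and direction at 5 CPM or more without overlap of the groups, the 5 most abundant, up to 6 per list by p, and fixed markers. For the genes named by size of change, a call and the absence of overlap were conditions and not results. Anpep and the other genes at the class limits are named as limits. Some genes that the rule names are not reported here. The members and the 41 lists were chosen with earlier results of these data known. Alternatives were other scalings, filters, class limits, DESeq2 1.42.0, limma-voom (limma 3.58.1), a test against a fold of 1.5, WT tumours 1 and 2 summed, and each library left out. Counts of list members under each alternative, and a fit with the numbers of the data columns as a block, were added after seeing the data.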

Additional observations from a re-analysis of the deposited data

Results flagged for a closer look

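For these genes the KO effect differed between tumours and cultures by edgeR's test of the difference itself (adjusted p under 0.05, fit of all 9 libraries, 3 and 2 tumours, 2 and 2 cultures). Values are the log2 fold change in tumours minus that in culture, and no explanation was tested. Among gastric and intestinal genes the effect was higher in tumours for Tff3 (8.24), Fabp1 (6.87), Mucl3 (2.25), Tff1 (1.97), Krt20 (1.96), Cdhr2 (1.72), Lgals4 (1.51), Krt19 (1.49) and Krt8 (1.20), and lower for Aqp5 (-5.16), Cftr (-3.29), Ephb3 (-2.71), Znrf3 (-1.58) and Ctnnb1 (-1.72). Among metabolic genes it was higher for Cyp2d22 (5.89), Gsta1 (3.28), Adh7 (2.90), Cyp3a13 (1.78), mt-Nd1 (1.76), Hadhb (1.14) and Cpt2 (1.06), and lower for Ogdhl (-2.26) and Slco3a1 (-2.46). Among signalling and adhesion genes it was higher for Cldn7 (6.92), Adgrg2 (2.56), Slit1 (1.77), Fgf13 (1.61) and Fgf1 (1.30), and lower for Fgfr4 (-4.72), Ptgs2 (-2.67), Tgfb3 (-2.15), Bhlhb9 (-2.01), Itga5 (-1.69), Igfbp4 (-1.36) and Nedd4 (-0.99). Among the other genes it was higher for Tm4sf5 (8.69), Il18 (3.42) and Cfb (1.87), and lower for Sh2d6 (-5.58). Cldn7 and Cyp2d22 fell in both settings and by less in tumours. Tm4sf5 and Sh2d6 were under 0.5 CPM in every culture library, so their culture effect rests on few counts. Groups of 2 or 3 libraries were too small for a test of single outlying samples.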

How the results depend on the processing

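The number of genes called ran from 1171 to 4143 with each library left out, against 3206. It was 1288 with WT tumours 1 and 2 summed and 1151 when tested against a fold of 1.5. For expressed genes (2201) these values were 702 to 3076, 780 and 574, and for silent genes (401) they were 178 to 416, 197 and 227. Silent genes called numbered 610 without a filter and 170 with the class limits at 10 and 0.1 CPM. With limma-voom 16 named genes lost their call. Among them were Axin2, Gkn1, Gkn2, Gsta3, Heph and Tff3 (limma-voom adjusted p = 0.0668, 0.25, 0.138, 0.114, 0.0566 and 0.0751). The share of called genes that were higher was 44.54% and became 70.04% when scaled by silent genes, 36.38% by library totals and 39.33% by expressed genes. The difference in the share of counts from silent genes was -0.27 percentage points and ran from -0.51 to -0.027 with each library left out. Of the genes named, the log2 fold change ran from -0.74 to 2.14 for Cd4, from -0.034 to 2.93 for Cxcl9 and from -2.07 to 0.90 for Gzmb with each library left out, below 0 without KO tumour 3 and for Gzmb also without WT tumour 3 (-0.42) and with limma-voom (-0.049). The data columns number the KO tumours 1 and 3 where the labels have 1 and 2, so the labels do not tie the numbers to pairs. With these numbers as a replicate block, a fit added after seeing the data, 1428 genes were called, 795 of them expressed and 250 silent. The deviations from the group means correlated by -0.0015 for the tumours numbered 1 and by 0.038 for those numbered 3 over 16257 genes. With 2 KO libraries the KO deviations mirror each other, so these values cannot tell whether tumours of the same number are pairs. The design has 2 KO libraries of a single line, and depth limits genes of a few counts.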
